A study of Mus musculus with 9 samples.

Results

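The 40 cell cycle genes described here were taken by gene name from a table of 50764 genes. They were grouped by the step at which their products act: 5 G1 cyclins and kinases, 3 inhibitors of cyclin-dependent kinases, 15 S phase genes and 17 mitosis genes. Poly-A RNA was measured in 9 libraries of cells picked as retinal ganglion cells from adult male wild-type mice. Every mouse had received an adeno-associated virus (AAV2) in the vitreous and an optic nerve crush, with 14 days given in the labels for each. The virus carried GFP, Olig2 or Olig3 (3 libraries each); the latter are basic helix-loop-helix transcription factors of neural progenitors. All groups thus share the crush and a virus, and no uncrushed or uninjected library was analysed here. The sources used here give neither the promoter of the virus nor whether replicates are separate mice, so p-values measure only the spread between these libraries. Cells were enriched on beads against CD90.2 (Thy1) and picked by hand, and the labels give the number of cells per library as 10 to 15 in one place and as 10 to 20 or 15 to 20 in others.

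Mature neurons are not known to divide: ganglion cells leave the cell cycle in development, and in the adult mouse retina the few cells known to divide are glia, vascular and immune cells. In dividing cells cyclin D with Cdk4 or Cdk6 releases E2F from the retinoblastoma protein, E2F targets then copy the DNA, and cyclin B with Cdk1 drives mitosis. Many S phase proteins are also used outside replication, in DNA repair and nucleotide supply, while most of the mitosis genes are transcribed mainly as cells approach division.

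Library totals ran from 5355691 to 6979851 counts, and a floor of 3 counts was worth 0.430 to 0.560 CPM (counts relative to the library total). Olig3 libraries 1 and 3 detected 16188 and 14434 genes, fewer than the 18184 to 21338 of the other libraries. Olig2 had 114, 97 and 21 counts in the Olig2 libraries and 0 in every GFP library. Olig3 had 172, 113 and 597 counts in the Olig3 libraries, 0 to 7 in the Olig2 libraries and up to 40 in GFP libraries. The summed level of 14 ganglion cell markers was 887 to 1854 CPM in GFP, 187 to 398 CPM in Olig2 and 115 to 308 CPM in Olig3, and the defining Rbpms and Slc17a6 were at 0 in Olig3 library 3. Sums of 16 rod genes were far higher in every library, at 53252 CPM or more. In such pooled picks, fewer cells of a type and less RNA per cell cannot be told apart.

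The regulatory DNA of these genes is shown first, since S phase and mitosis genes are known to carry different promoter motifs. RefSeq promoter windows (build GRCm38.p6, 250 bases before to 50 after a start site) were found for 32 of the 40 genes, with 35 windows. Letters of 3 motifs of cell cycle promoters were searched on both strands. They were the cell cycle genes homology region or CHR (TTTGAA or TTCGAA), bound by the MuvB core of the DREAM complex, the CCAAT box (CCAAT), bound by NF-Y, and the E2F site (TTTCCCGC, TTTGGCGC, TTTCGCGC or TTTGCCGC). Of 14 mitosis windows, 13 held a CCAAT box (92.9%) and 11 a CHR (78.6%), against 37.4% and 19.2% of all 32851 windows of the same length. The 14 S phase windows (13 genes) held a CHR in 3 cases (21.4%) and a CCAAT box in 11 (78.6%). E2F sites had the opposite split, with 5 S phase windows (35.7%) and 1 mitosis window (7.14%), against 2.26% of all windows. Of the 7 windows of G1 genes and inhibitors, 2 held a CCAAT box and 0 another motif. A match is a run of letters and not a shown binding site.

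**Figure D1:**
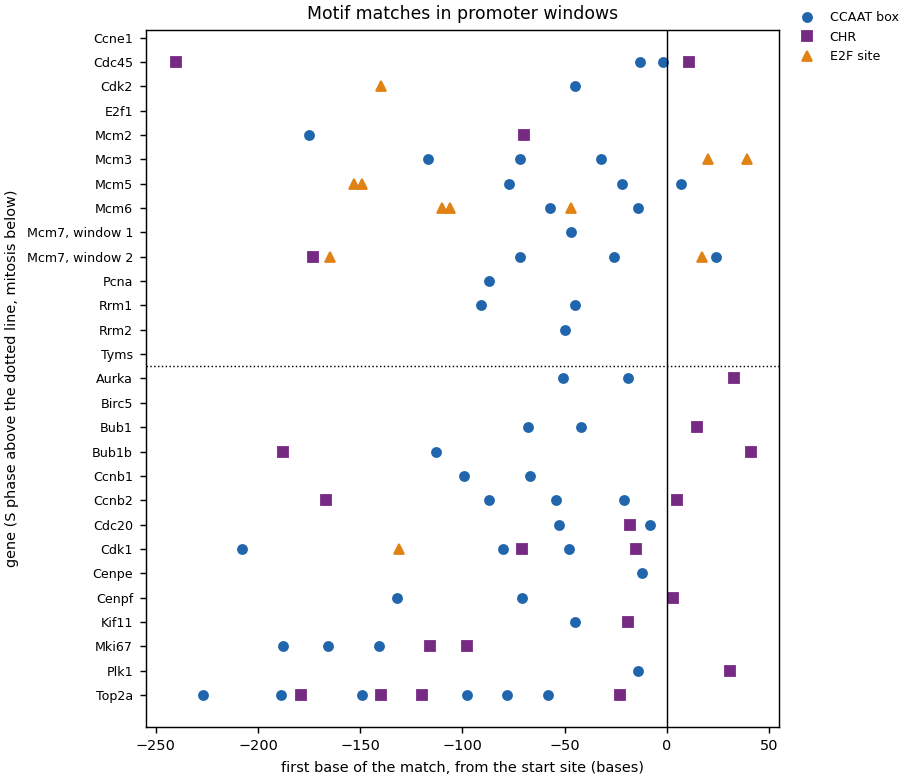
First base of each motif match (CCAAT box, CHR or E2F site, either strand), in bases from the RefSeq start site at 0, for each S phase window (above the dotted line) and mitosis window (below). CHR matches lie in 11 of 14 mitosis windows and 3 of 14 S phase windows, and E2F matches in 1 and 5.

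The 200 bases before the start site are shown for 5 mitosis genes whose windows held both a CCAAT box and a CHR and for 1 S phase gene with E2F sites, chosen after the matches were seen. All are read 5′ to 3′ along the gene's strand, with matches in capitals (on the other strand CCAAT reads ATTGG and TTTGAA reads TTCAAA). In Mcm6 the first run of capitals is 2 overlapping E2F matches on opposite strands.
Ccnb2, chr9:70421555-70421754, minus strand: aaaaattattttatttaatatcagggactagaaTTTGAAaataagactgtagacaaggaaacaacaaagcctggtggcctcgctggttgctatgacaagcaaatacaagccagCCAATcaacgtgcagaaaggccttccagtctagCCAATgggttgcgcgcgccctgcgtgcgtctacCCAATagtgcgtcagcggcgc
Cdc20, chr4:118437344-118437543, minus strand: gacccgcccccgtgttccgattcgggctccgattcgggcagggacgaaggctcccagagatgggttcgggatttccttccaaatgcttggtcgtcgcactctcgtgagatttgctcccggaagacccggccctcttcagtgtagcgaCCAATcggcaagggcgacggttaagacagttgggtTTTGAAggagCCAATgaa
Cdk1, chr10:69352913-69353112, minus strand: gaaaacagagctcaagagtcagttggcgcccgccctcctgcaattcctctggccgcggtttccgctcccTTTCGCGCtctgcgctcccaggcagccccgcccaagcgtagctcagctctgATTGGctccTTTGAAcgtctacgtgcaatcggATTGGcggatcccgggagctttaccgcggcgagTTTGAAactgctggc
Top2a, chr11:99024190-99024389, minus strand: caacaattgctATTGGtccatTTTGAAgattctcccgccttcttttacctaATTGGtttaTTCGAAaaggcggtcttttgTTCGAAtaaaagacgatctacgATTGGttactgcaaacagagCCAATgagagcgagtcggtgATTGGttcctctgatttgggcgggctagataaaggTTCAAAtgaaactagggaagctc
Kif11, chr19:37376182-37376381, plus strand: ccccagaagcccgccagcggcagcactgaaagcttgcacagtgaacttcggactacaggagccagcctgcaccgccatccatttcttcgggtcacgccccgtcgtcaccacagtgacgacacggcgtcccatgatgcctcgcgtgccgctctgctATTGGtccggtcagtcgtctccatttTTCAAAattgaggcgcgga
Mcm6, chr1:128359706-128359905, minus strand: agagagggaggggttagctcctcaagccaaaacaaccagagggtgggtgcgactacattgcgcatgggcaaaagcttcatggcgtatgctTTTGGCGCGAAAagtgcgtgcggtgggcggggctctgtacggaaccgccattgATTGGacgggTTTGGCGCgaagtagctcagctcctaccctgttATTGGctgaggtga

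The 17 mitosis genes were high in 1 library, GFP library 3. Their summed level was 79.9, 212 and 1602 CPM in GFP libraries 1 to 3, 127, 59.3 and 72.3 CPM in the Olig2 libraries and 58.4, 85.1 and 55 CPM in the Olig3 libraries. The GFP mean of 631 ± 843 CPM (SD, n = 3) therefore had an SD larger than itself, against 86.1 ± 35.7 CPM in Olig2 and 66.2 ± 16.5 CPM in Olig3 (n = 3 each). GFP libraries 1 and 2 alone averaged 146 CPM. All 17 genes had their highest level in GFP library 3, and 11 of them had their second highest in GFP library 2.

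The S phase genes showed no such library, though their sum was also highest in GFP library 3. Their summed level was 242, 436 and 502 CPM in the GFP libraries, 309, 178 and 202 CPM in the Olig2 libraries and 377, 175 and 287 CPM in the Olig3 libraries. The groups overlapped, with means of 393 ± 135 CPM, 230.0 ± 69.5 CPM and 279.7 ± 101 CPM (SD, n = 3 each). The ratio of mitosis to S phase counts was 3.19 in GFP library 3 and lay between 0.155 and 0.487 in the other 8 libraries.

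**Figure D2:**
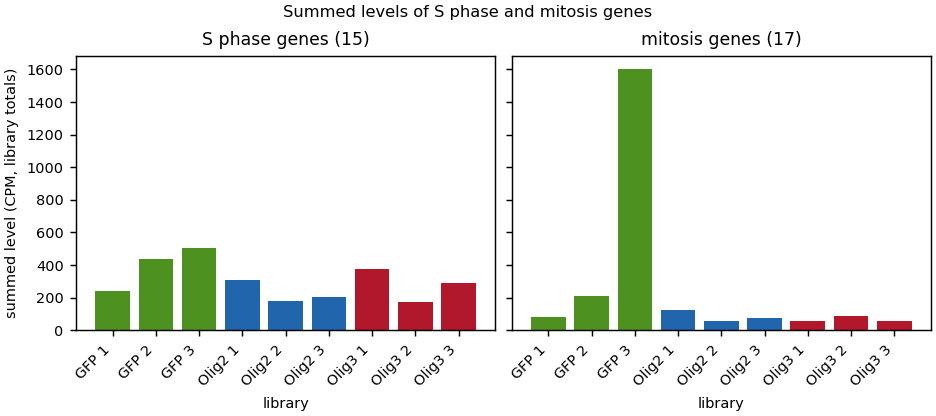
Summed level in CPM of library totals (bars, 1 per library, from 0) of the 15 S phase genes (left) and the 17 mitosis genes (right). The mitosis sum of GFP library 3 is 1602 CPM and the next highest is 212 CPM in GFP library 2, while S phase sums run from 175 to 502 CPM.

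Among the mitotic kinases and cyclins, the 2 B cyclins and their kinase were read mainly in that library. Ccnb1 (cyclin B1) had 1, 21 and 1237 counts in the GFP libraries, 16, 4 and 0 in the Olig2 libraries and 0, 22 and 0 in the Olig3 libraries. Ccnb2 (cyclin B2) had 1, 77 and 349 counts, then 0, 8 and 2, then 59, 28 and 0 in the same order. Cdk1, the kinase that B cyclins activate, had 1, 86 and 524 counts in GFP, 24, 1 and 14 in Olig2 and 0, 20 and 0 in Olig3. Each of the 3 genes was thus present at lower counts in GFP library 2 and near 0 in GFP library 1, and the GFP levels overlapped with those of both other groups. Plk1, a kinase of mitotic entry and spindle assembly, had 19, 63 and 257 counts in GFP, 0, 8 and 2 in Olig2 and 0, 13 and 0 in Olig3. Aurka, the spindle pole Aurora kinase, had 51, 60 and 399 counts in GFP, 4, 2 and 25 in Olig2 and 0, 18 and 0 in Olig3. In scaled CPM, Aurka and Plk1 were 2 of the mitosis genes whose 3 GFP libraries all lay above the 3 Olig2 libraries, and Aurka also lay above all 3 Olig3 libraries.

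The chromosomal passenger genes and Cdc20 were likewise highest in GFP library 3 and second highest in GFP library 2, while the checkpoint kinase Bub1 was near 0 outside GFP library 3. Aurkb, the Aurora kinase of the chromosomal passenger complex, had 0, 23 and 241 counts in GFP, 0 in all Olig2 libraries and 0, 3 and 0 in Olig3. Birc5 (survivin), its partner, had 0, 56 and 393 counts in GFP, 14, 7 and 2 in Olig2 and 0, 6 and 0 in Olig3. Cdc20, which activates the anaphase-promoting complex, had 0, 76 and 1328 counts in GFP, 2, 13 and 10 in Olig2 and 1, 10 and 0 in Olig3. Both passenger genes and Cdc20 were at 0 in GFP library 1. Bub1 had 0, 0 and 148 counts in GFP, 0, 0 and 6 in Olig2 and 1, 1 and 0 in Olig3. From counts pooled by group, Aurkb was at least 85.6-fold lower in Olig2 than in GFP, with the Olig2 group set to 3 counts in all. Against Olig3 (3 counts) the ratio for Aurkb was 81.4 with a 95% counting interval of 27.5 to 397, and for Bub1 (2 counts) it was 68.4 with an interval of 18.6 to 570.3. These intervals cover counting error only and not the spread between libraries. They take reads as independent, although the RNA was amplified over 20 cycles and PCR copies were not marked. Without GFP library 3 the values for Aurkb were at least 11.1-fold for Olig2 and a ratio of 10.6 (3.19 to 55) for Olig3. The 23 Aurkb counts of GFP then left were all from GFP library 2, and Bub1 had 0 GFP counts left.

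Chromosome, kinetochore and spindle genes complete the mitosis list. Mki67, the gene of the proliferation marker Ki-67 (chr7:135689784-135716361 in build mm10), had 2, 75 and 753 counts in GFP, 0, 5 and 8 in Olig2 and 0, 9 and 0 in Olig3. Top2a, the topoisomerase that untangles chromosomes (chr11:98992943-99024189), had 12, 96 and 1320 counts in GFP, 0, 8 and 5 in Olig2 and 1, 23 and 0 in Olig3. Cenpf, a kinetochore protein, had 0, 1 and 873 counts in GFP, 1, 6 and 11 in Olig2 and 39, 24 and 0 in Olig3. Cenpf thus differed from Mki67 and Top2a in being near 0 in GFP library 2 as well. The kinetochore motor Cenpe had 64, 177 and 699 counts in GFP, 55, 24 and 50 in Olig2 and 0, 39 and 5 in Olig3. The spindle motor Kif11 had 1, 41 and 217 counts in GFP, 0, 4 and 1 in Olig2 and 0, 0 and 2 in Olig3. Its pooled ratio of GFP over Olig3 was 119.7 (95% counting interval 32.8 to 994), or 29 (7.53 to 247) without GFP library 3. Of the 42 GFP counts then left, 41 were from GFP library 2. The spindle assembly factor Tpx2 had 21, 86 and 357 counts in GFP, 45, 4 and 5 in Olig2 and 1, 7 and 0 in Olig3. All Tpx2 levels of GFP lay above those of Olig3, while they overlapped with those of Olig2.

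Ccna2 and Bub1b stood apart from the other 15 mitosis genes. Ccna2 (cyclin A2, which acts from S phase to early mitosis) had 154, 293 and 575 counts in GFP, 264, 135 and 181 in Olig2 and 243, 126 and 119 in Olig3. Bub1b (BubR1, of the spindle checkpoint) had 141, 246 and 439 counts in GFP, 388, 93 and 168 in Olig2 and 31, 107 and 199 in Olig3. Both genes were read in every library. Together they made up 51.1 to 97.8% of the mitosis counts in each Olig2 or Olig3 library, and 63%, 36.5% and 10.0% in GFP libraries 1 to 3. GFP library 3 held 27.5% of all Ccna2 counts and 24.2% of all Bub1b counts, against 62.8 to 95.1% for each of the other 15 genes. Ccna2 shares 510 exon bases (12.5%) with Exosc9 on the opposite strand, and without a stated strand setting their reads cannot be told apart. Bub1b shares none with another annotated gene.

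GFP library 3 was compared gene by gene with the highest of the other 8 libraries, in CPM scaled by the trimmed mean of M values (TMM), called scaled CPM here. It was at least 2 times higher for 16 of 17 mitosis genes (94.1%) and for 2 of 15 S phase genes (13.3%, E2f1 and Mcm3), against 290 of 15609 tested genes (1.86%). The 17 include Bub1, Aurkb and Kif11, which had too few counts to be among the tested genes. GFP library 3 was the highest of all 9 libraries for 6 of the 15 S phase genes, against 14.0% of all tested genes. The ratio to the highest of the other 8 was 1.06 for Bub1b, 2.04 for Ccna2 and 4.17 to 30.1 for the other 15 mitosis genes, with Ccnb1 at the top. Per kilobase of exon, Cdc20 reached 95.2 scaled CPM in GFP library 3, above Pcna at 75.9 and Cdk4 at 42.3. In the other 8 libraries Cdc20 was at most 5.17 scaled CPM per kilobase, while Pcna was at least 43.7 and Cdk4 at least 44.0.

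**Figure D3:**
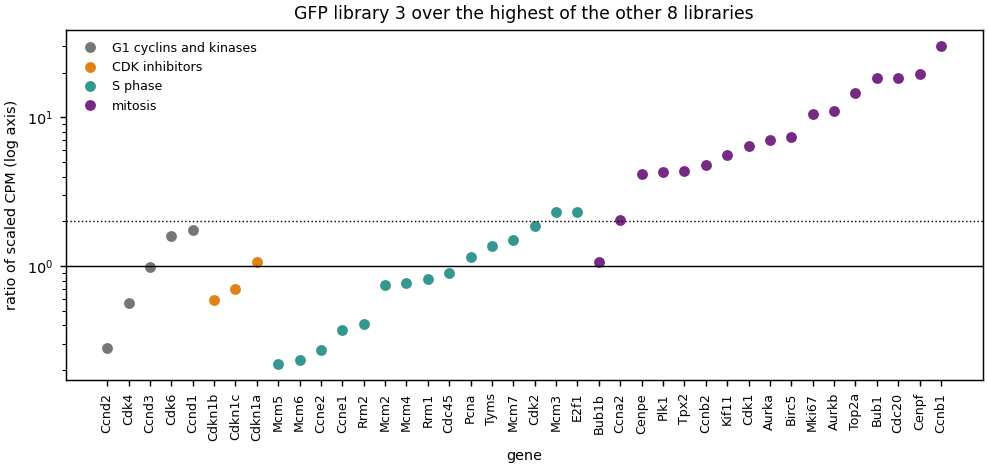
Ratio of scaled CPM in GFP library 3 to the highest of the other 8 libraries for all 40 genes, by role, on a log axis (solid line 1, dotted line 2). The 15 mitosis genes other than Ccna2 and Bub1b lie at 4.17 or more and S phase genes lie on both sides of 1.

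Markers of other cell types were read beside this library. Müller glia markers summed to 8166 CPM in GFP library 3 against 1065 to 4622 CPM elsewhere. In CPM of library totals, without TMM scaling, 10 of the 11 were highest there. Their ratios to the next highest library ran from 1.08 (Aqp4) to 3.48 (Slc1a3). Slc1a3, the glial glutamate transporter, had 2389 counts in GFP library 3 and 194 to 636 in the other libraries. Glul went the other way, with 803 counts in GFP library 3 and 1883 in Olig3 library 1. Endothelial and pericyte markers summed to 302 CPM against 60.7 to 149 CPM, almost all from Kdr (1606 counts) and Flt1 (260 counts), while 6 of the 11 markers, among them Pecam1, Cdh5 and Cldn5, were at 0. Granulocyte markers summed to 140.4 CPM, all from Lcn2, with the other 10 of 11 at 0. Microglia and macrophage markers summed to 311 CPM against 727 CPM in GFP library 2. Of these markers 12 of 14 were read in GFP library 3, among them C1qb (368 counts), C1qc (220) and Cd68 (211), with 0 of them highest there and the defining P2ry12 and Tmem119 at 0. T cell markers summed to 38.2 CPM against 185 CPM in Olig2 library 1, with 9 of 11 read in GFP library 3 (Lck at 144 counts, its highest level of all libraries, and Cd3g at 47) and Cd4 and Cd8a at 0. Lens markers were at 299 CPM in GFP library 3 and at 1835 and 4512 CPM in GFP libraries 1 and 2. All 6 fibroblast markers were at 0 in it, and sums of B and plasma cell (21.7 CPM), red blood cell (8.87 CPM), pigment epithelium (3.64 CPM) and corneal epithelium markers (3.01 CPM) were low. Oligodendrocyte markers stood at 132 CPM, within the range of the other libraries. The part of other cells in the mitosis levels was not tested.

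In the S phase list, the clamp and helicase genes were read widely. Pcna, the sliding clamp of replication and repair, had the most counts of the list, with 700, 974 and 1361 counts in GFP, 1044, 447 and 844 in Olig2 and 1067, 458 and 767 in Olig3. Its scaled levels of 137 ± 40.4, 136 ± 25.2 and 128 ± 25.3 CPM (SD, n = 3 each) differed by less than their spread. The MCM helicase subunits were uneven between libraries. Mcm4 was read in all 9 libraries, with 43, 132 and 150 counts in GFP, 96, 57 and 34 in Olig2 and 159, 49 and 178 in Olig3. Mcm6 had 36, 208 and 46 counts in GFP, 51, 46 and 37 in Olig2 and 0, 19 and 0 in Olig3, and its Olig3 levels lay below those of both other groups. Mcm5 had 86, 92 and 44 counts in GFP, 24, 1 and 16 in Olig2 and 183, 21 and 0 in Olig3. Its Olig2 levels thus lay below all GFP levels, while those of Olig3 spanned both. Mcm2 and Mcm7 were read in all 9 libraries, at 10 to 91 and 39 to 291 counts, and Mcm3 ranged from 0 in Olig3 libraries 1 and 3 to 60 counts in GFP library 3. Cdc45, which joins MCM in the active helicase, had 52, 77 and 139 counts in GFP, 0, 22 and 14 in Olig2 and 140, 19 and 0 in Olig3.

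Among genes of nucleotide supply, the 2 subunits of ribonucleotide reductase differed in pattern. Rrm1, the large subunit, had 146, 399 and 309 counts in GFP, 291, 114 and 122 in Olig2 and 187, 135 and 212 in Olig3. Rrm2, the small subunit whose level is known to peak in S phase (chr12:24708241-24714146), had 2, 372 and 143 counts in GFP, 7, 14 and 3 in Olig2 and 1, 2 and 0 in Olig3. Rrm2 was therefore highest in GFP library 2 and its level in GFP library 1 lay below every Olig2 level. Its pooled ratio of GFP over Olig3 was 159 (95% counting interval 54.2 to 775, from 517 and 3 counts). Without GFP library 2, which held 372 of the 517 counts, it was 70.3 (23.6 to 345). Of the 145 GFP counts then left, 143 were from GFP library 3. Tyms, which makes thymidylate, was read at 61 to 303 counts in every library.

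The E2F and cyclin E axis was low apart from Ccne2. E2f1, the activator of S phase genes, had 0, 20 and 44 counts in GFP, 2, 9 and 3 in Olig2 and 1, 10 and 0 in Olig3. Ccne2 (cyclin E2) had 97, 178 and 94 counts in GFP, 122, 51 and 62 in Olig2 and 311, 43 and 243 in Olig3, of which the 2 high Olig3 libraries are those with the fewest detected genes. Ccne1 (cyclin E1) had 29, 75 and 28 counts in GFP, 12, 11 and 8 in Olig2 and 68, 7 and 8 in Olig3. All Ccne1 levels of Olig2 lay below those of GFP. Cdk2, the partner kinase of cyclin E, was at 0 to 79 counts, highest in GFP library 3. Ccne2 shares 609 exon bases (17.4%) with Ints8 on the opposite strand.

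The G1 genes held no single high library. Cdk4 had 956, 1561 and 1026 counts in GFP, 1104, 659 and 804 in Olig2 and 1654, 587 and 1228 in Olig3, with scaled levels of 159.5 ± 33.6, 153 ± 7.55 and 190.3 ± 49.3 CPM (SD, n = 3 each). Ccnd1 (cyclin D1) had 104, 232 and 386 counts in GFP, 104, 102 and 77 in Olig2 and 78, 62 and 97 in Olig3. Its GFP levels lay above those of Olig3 without overlap. Ccnd2 (cyclin D2, chr6:127125162-127152193) had groups in the order Olig2, GFP and Olig3, with 11, 104 and 62 counts in GFP, 207, 104 and 158 in Olig2 and 0, 10 and 0 in Olig3. In scaled CPM these were 7.72 ± 5.80, 27.6 ± 2.47 and 0.834 ± 1.44 (SD, n = 3 each), so the Olig2 levels lay above all others. Cdk6, the other partner of D cyclins, had 10, 3 and 88 counts in GFP, 28, 31 and 24 in Olig2 and 3, 8 and 2 in Olig3. Ccnd3 was read at 47 to 561 counts, with its lowest value in Olig3 library 3. Ccnd1 and Cdk4 share 23.4% and 19.7% of their exon bases with LTO1 and Tspan31 on the opposite strand. Ccnd2 shares 3.95% and 3.91% with the antisense genes Gm43126 and 9330179D12Rik. These had 26, 8 and 6, and 42, 4 and 0 counts in the Olig2 libraries, and at most 1 count in any other library.

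Of the inhibitors, Cdkn1a (p21, a p53 target; chr17:29090976-29100727) varied most, with 653, 91 and 780 counts in GFP, 17, 144 and 69 in Olig2 and 0, 44 and 0 in Olig3. All 3 GFP levels lay above the Olig3 levels, while those of Olig2 overlapped with both. GFP libraries 1 and 3 were the 2 high ones, and GFP library 1 had 0 to 2 counts for 10 of the 17 mitosis genes, so the 2 libraries with high Cdkn1a differed in mitosis levels. Cdkn1b (p27) had 15 to 140 counts and Cdkn1c (p57) 68 to 188 counts over the 9 libraries, with groups that overlapped. Cdkn1c shares 625 exon bases (30.7%) with the antisense gene Gm44732.

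**Figure D4:**
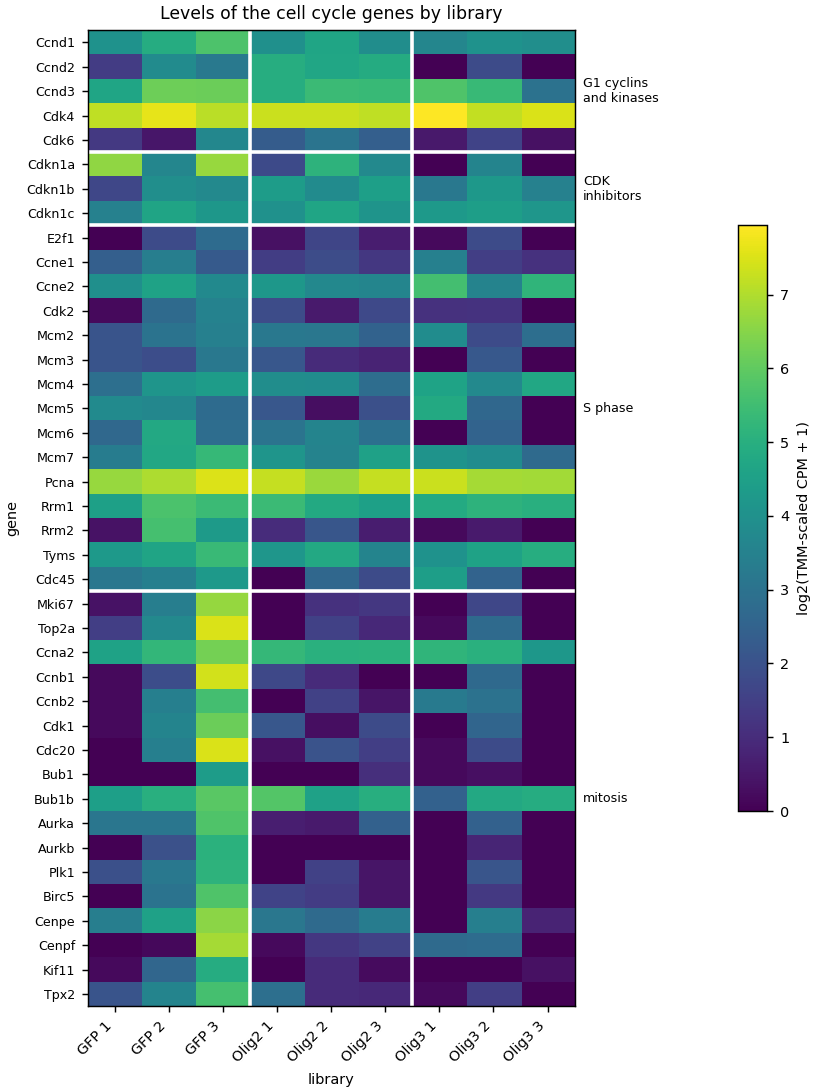
Levels of all 40 genes (rows, by role) in the 9 libraries (columns), as log2(scaled CPM + 1). The column of GFP library 3 is bright over the mitosis rows, where Olig3 library 3 has 13 of 17 genes at 0, while Cdk4, Pcna, Ccna2 and Bub1b have signal in every library.

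The Olig2 and GFP libraries, all from crushed eyes, also differed in the sums of ganglion cell and rod markers. Sums of B and plasma cell markers were 2241 to 8738 CPM in Olig2, 17.8 to 87.5 CPM in GFP and 25.8 to 48 CPM in Olig3. In the comparison of Olig2 with GFP, 0 of the 37 tested genes passed an adjusted p of 0.05 in edgeR's quasi-likelihood test, while 8 of 15609 genes (0.0513%) did, 6 higher (0.0384%) and 2 lower (0.0128%) than in GFP. Bub1, Aurkb and Kif11 had too few counts in most libraries to be tested. At an unadjusted p below 0.05, 7 of the 37 were lower and 0 higher, against 2.08% and 2.61% of all tested genes, and 6 of the 7 were mitosis genes. DESeq2 and limma-voom also called 0 of them, with 90 and 6 genes called in all. EdgeR without a filter on low counts called 8 (Cdc20, Aurkb, Top2a, Cdkn1a, Cenpf, Mki67, Ccnb2 and Ccnb1), among 176 of the 29429 genes with a count. All but Cdkn1a are mitosis genes with 66.6 to 95.1% of their counts in GFP library 3. Without GFP library 3 the count lower at an unadjusted p below 0.05 was 1, against 1.53% of the 16567 genes tested in that fit. The 8 genes with the smallest p, Top2a, Cdc20, Mki67, Ccnb1, Rrm2, Ccnb2, Cenpf and Plk1, had log2 changes from -6.16 to -3.78 with standard errors of 1.51 to 2.28 and adjusted p of 0.684 to 1 (edgeR). Top2a led them, at 63.6 ± 98.1 scaled CPM in GFP and 0.935 ± 0.954 in Olig2 (SD, n = 3 each), a log2 change of -6.16 ± 1.95 (SE). In all, 6 genes of the list (Ccne1, Mcm5, Cdc45, Aurka, Plk1 and Cenpe) had all Olig2 levels below all GFP levels and 1, Ccnd2, had all above, against 8.35% and 8.47% of tested genes.

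As groups, the mitosis genes had a median difference in mean log2 CPM of -2.50 in Olig2 against GFP (-2.42 over the 14 tested). The S phase genes had -0.60, beside 0.06 for all tested genes. Without GFP library 3 the mitosis median was -0.96 (-0.65 over the 14 tested) and the S phase median -0.28, beside 0.04 for all tested genes. In that setting 13 of 17 mitosis genes were still below 0. A filter for genes at 10 CPM or more in 3 libraries leaves 3 of the 17 mitosis genes (Ccna2, Bub1b and Cenpe) and 8 of the 15 S phase genes. With it the mitosis median was -0.24 and the S phase median -0.35, beside 0.03 for all genes of that filter. The G1 median over all members was -0.04 and that of the inhibitors 0.17.

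In the comparison of Olig3 with GFP, again 0 of 37 tested genes passed the threshold in edgeR's test, against 32 of 15609 (0.205%), 15 higher (0.0961%) and 17 lower (0.109%) than in GFP (1 higher and 29 lower without scaling factors). Before adjustment, at a p below 0.05, 12 were lower and 0 higher, against 6.37% and 5.76% of all tested genes. They were 8 mitosis genes, Rrm2, Cdkn1a, Ccnd1 and Ccnd2. Without GFP library 3 the count lower was 2, against 4.80% of the 16567 genes tested in that fit. Rrm2 had the smallest p, at 22.2 ± 23.6 scaled CPM in GFP and 0.216 ± 0.257 in Olig3 (SD, n = 3 each), a log2 change of -6.72 ± 1.80 (SE) with an adjusted p of 0.184 in edgeR. Without GFP library 2, which held most of its counts, the change of Rrm2 was -5.47 here and -2.57 in Olig2 against GFP. The levels of Cdkn1a did not overlap, but it did not pass. Its means were 71.2 ± 51.8 and 3.67 ± 6.35 scaled CPM, with a log2 change of -4.37 ± 1.57 (SE) and an adjusted p of 0.308 (edgeR). The other 6 of the 8 with the smallest p (Tpx2, Cdc20, Top2a, Mki67, Cenpe and Birc5) had log2 changes from -6.31 to -3.63, standard errors of 1.34 to 2.14 and adjusted p of 0.268 to 0.348 (edgeR). DESeq2 called 2 of the genes, Rrm2 and Tpx2, at adjusted p of 0.00102 and 0.0111, among 502 genes in all. Over all alternatives the adjusted p ran from 0.000637 to 0.908 for Rrm2 and from 0.00980 to 0.991 for Tpx2. Without a filter on low counts edgeR called 12, among 556 of the 29429 genes with a count. Limma-voom called 0, with 78 genes in all. Leaving out Olig3 library 2, the Olig3 library with the most detected genes, gave 5 calls in edgeR (Ccnd2, Cdkn1a, Mcm6, Aurka and Cenpe), among 505 genes in all. Ccnd1, Cdkn1a, Mcm6, Aurka and Tpx2 had all Olig3 levels below all GFP levels and 0 genes had all above, against 10.0% and 7.18% of tested genes.

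The median difference in mean log2 CPM of Olig3 against GFP was -3.14 for mitosis (-3.30 over the 14 tested), -0.94 for S phase, -1.06 for G1 and 0.21 for the inhibitors, beside -0.18 for all tested genes. Without GFP library 3 the mitosis median was -1.42 (-1.45 over the 14 tested), with 14 of 17 genes below 0. The S phase median was then -0.50, beside -0.21 for all tested genes. Over the 3 mitosis and 8 S phase genes at 10 CPM or more in 3 libraries, the medians were -1.13 and -0.25, beside -0.07 for all genes of that filter. With Olig3 library 2 as the only Olig3 library, the mitosis median against GFP was -1.44. This comparison and the one of Olig2 share the GFP libraries, so their likeness is not a second observation.

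**Figure D5:**
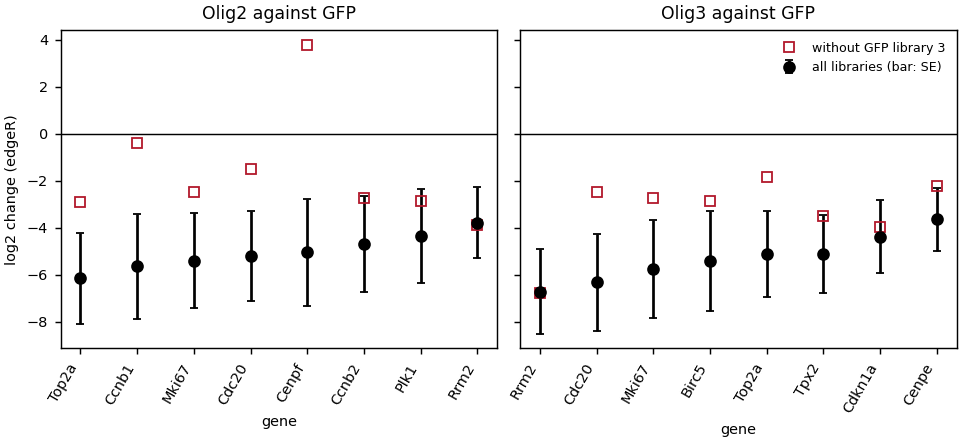
Log2 change from edgeR (y axis) for the 8 genes with the smallest p in Olig2 against GFP (left) and Olig3 against GFP (right), with all libraries (filled, bars ± SE) and without GFP library 3 (open squares). Rrm2 stays in place without GFP library 3, Top2a, Ccnb1, Cdc20 and Mki67 lie nearer to 0, and Cenpf in Olig2 goes from -5.05 to 3.80.

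Olig3 and Olig2 were also compared directly, without the GFP libraries as a reference. Of the 37 genes tested by edgeR, 0 passed, against 6 of 15609 (0.0384%), and at an unadjusted p below 0.05 Ccnd2 was lower and 0 genes were higher, against 3.05% and 2.07%. The log2 change of Ccnd2 was -5.16 ± 1.47 (SE) with an adjusted p of 0.765 (edgeR). For Ccnd2 the call depended on the method: DESeq2 gave an adjusted p of 0.00641, edgeR without a filter on low counts 0.000820 and edgeR without Olig3 library 2 0.0294, in a range of 0.000820 to 1 over all alternatives. Those settings called 82, 140 and 160 genes in all. Without Olig3 libraries 1 and 3, where Ccnd2 was at 0, its log2 change was -3.45. The next 7 genes by p were Ccne2 (1.18), Rrm2 (-2.94), Cdk6 (-2.53), Mcm6 (-2.43), Cdkn1a (-2.24), Mcm5 (2.28) and Ccnb2 (2.83), each value a log2 change, with standard errors of 0.583 to 1.92 and adjusted p of 0.933 to 0.934 in edgeR. Ccnd2, Cdk6, Mcm6 and Rrm2 had all Olig3 levels below all Olig2 levels and 0 had all above, against 8.69% and 4.41% of tested genes. The mitosis median was -0.56 (-0.75 over the 14 tested) and the S phase median -0.08, beside -0.23 for all tested genes. Over the 3 and 8 genes of the stricter filter these medians were -1.11 and 0.60, beside -0.10 for all genes of that filter. With Olig3 library 2 as the only Olig3 library, the mitosis median was 1.43.

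Other genes of the pathway were read from lists that hold none of the 40. Of 38 other mitosis genes, such as those of the kinetochore, central spindle and mitotic kinesins, 29 were tested and 0 passed the threshold of edgeR in any comparison. Before adjustment, 6 of them were lower at p below 0.05 in Olig2 against GFP (2.08% of all tested genes), 10 in Olig3 against GFP (6.37%) and 0 in Olig3 against Olig2 (3.05%). Without GFP library 3 the first 2 counts were 1 and 3, against 1.53% and 4.80% of all tested genes. Their summed level was 345, 503 and 2231 CPM in the GFP libraries, 347, 209 and 231 CPM in Olig2 and 342, 249 and 237 CPM in Olig3. In CPM of library totals 37 of 38 were highest in GFP library 3. Hmmr, a spindle protein, was at 20.5 ± 27.5 scaled CPM in GFP (SD, n = 3) and at 0 in all libraries of both factors, with adjusted p of 0.438 for Olig2 and 0.154 for Olig3 (edgeR). Of 25 other replication genes, 21 were tested and 0 passed. Before adjustment at most 1 was higher and 2 were lower, both in Olig3 against GFP (5.76% and 6.37% of all tested genes). The sums of the 25 overlapped between groups, at 361, 492 and 543 CPM in GFP, 476, 288 and 329.7 CPM in Olig2 and 431, 308 and 441 CPM in Olig3. Mitosis genes of this second set were thus high in 1 library, while the sums of its replication genes ran from 288 to 543 CPM. The replication sum was also highest in GFP library 3, where 10 of the 25 had their highest CPM of library totals. In scaled CPM, 14.0% of all tested genes were highest in GFP library 3.

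Of 18 E2F and retinoblastoma family genes, 17 were in the table, 12 were tested and 0 passed. At an unadjusted p below 0.05 (edgeR), 1 was lower in Olig2 against GFP (2.08% of all tested genes). In Olig3 against GFP 1 was higher and 1 lower (5.76% and 6.37%). E2f6, a repressor of the E2F family, came nearest, at 88.7 ± 27.8 scaled CPM in GFP, 22.7 ± 3.93 in Olig2 and 35.7 ± 8.38 in Olig3 (SD, n = 3 each). Its log2 changes were -1.97 ± 0.339 (SE, adjusted p = 0.109) for Olig2 and -1.31 ± 0.331 (adjusted p = 0.156) for Olig3 in edgeR. Of 17 other G1 regulators, 16 were tested and 0 passed. Before adjustment at most 1 was higher and 2 were lower, both in Olig3 against GFP (5.76% and 6.37% of all tested genes). Gadd45a, like Cdkn1a a p53 target, was at 87.3 ± 24.9 scaled CPM in GFP, 45.6 ± 13.5 in Olig2 and 29.7 ± 26.3 in Olig3 (SD, n = 3 each), with an adjusted p of 0.348 for Olig3 against GFP (edgeR).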

How the data were processed

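Poly-A RNA of hand-picked retinal cells was amplified over 20 cycles with the SMART-Seq HT kit, per the labels' protocols. The deposited values are raw counts of reads per gene that the authors made with FastQC, HISAT2 and HTSeq on mm10, per the submitters' processing notes; the sources used here give no versions or strand setting, and PCR copies are not marked by molecular identifiers.

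The test on counts was edgeR's quasi-likelihood F test (edgeR 4.0.16, R 4.3.3) with TMM factors and filterByExpr (15609 genes, 37 of the 40), in 1 model of group means over 9 libraries (6 residual degrees of freedom, common dispersion 0.532). P-values were adjusted by Benjamini-Hochberg over all tested genes, with a threshold of 0.05. The procedure was tested on simulated counts with a lower dispersion than these data. The simulation therefore does not show which changes the test can find here. Alternatives used DESeq2 1.42.0 and limma 3.58.1 (voom), other scalings, filters and libraries left out. Replicate numbers were not taken to pair libraries, and the labels do not say what a number shares. CPM of a single gene uses TMM-scaled totals (mean ± SD), sums of lists use unscaled totals, and list medians are taken over differences in mean log2 CPM (prior count 2). The 40 genes, the other lists and the motifs were chosen with earlier results of these data known. Log2 changes are printed for the 8 genes of the list with the smallest p per comparison, and of the other lists genes are named from the 2 with the smallest p. Coordinates and exon lengths are from GENCODE release M21 (mm10) and promoter windows from RefSeq (GRCm38.p6).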

Additional observations from a re-analysis of the deposited data

How the results depend on the processing

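The counts of genes past the threshold moved with the method, given here in the order Olig2 against GFP, Olig3 against GFP, then Olig3 against Olig2, and, in brackets, as cell cycle genes. The edgeR fit gave 8, 32 and 6 (0, 0 and 0), and without a filter on low counts 176, 556 and 140 (8, 12 and 2). DESeq2 gave 90, 502 and 82 (0, 2 and 1), and limma-voom 6, 78 and 1 (0, 0 and 0). Fits of only the libraries compared gave 23, 0 and 2. No scaling factor gave 0, 30 and 5, and an adjusted p below 0.1 gave 11, 87 and 12. With the replicate number as a block (pairing) the counts were 10, 0 and 8, with 0 cell cycle genes. Same-numbered libraries deviated together in 1 of 9 pairs (correlations of -0.0634 to 0.113 over genes), so the numbers were not taken to pair libraries. Leaving out 1 library at a time gave 0 to 8, 0 to 505 and 2 to 160 genes, and 0, 0 to 5 and 0 to 1 cell cycle genes, the highest in each of the last 2 comparisons without Olig3 library 2. Leaving out Olig3 libraries 1 and 3, chosen after seeing the data, leaves 1 Olig3 library. The mitosis median was then -1.44 in Olig3 against GFP and 1.43 in Olig3 against Olig2.

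Of the alternative values of printed cell cycle genes, 301 kept their direction and side of the threshold, 22 crossed to a call and 2 reversed: Cenpf in Olig2 against GFP, from -5.69 to 3.80 on leaving out libraries (3.80 without GFP library 3), and Ccne2 in Olig3 against Olig2 (-0.33 without Olig3 libraries 1 and 3). Of the 22, 16 came without the filter. The cause of these changes was not tested. Without its most abundant gene, Pcna, the S phase sum averaged 235, 107 and 153 CPM in GFP, Olig2 and Olig3, and the mitosis sum averaged 578, 55.2 and 39.0 CPM without Ccna2, its gene with the highest mean CPM. Without the genes that share exon bases (an alternative chosen after seeing the data) the mitosis sum averaged 411.6, 52.5 and 36.1 CPM. Without scaling the median over all tested genes was -0.31, -0.42 and -0.10, and the S phase median of Olig3 against Olig2 turned to 0.05. This S phase median lay above that of all tested genes by 0.15 without scaling and by 0.14 with TMM factors. The same S phase median was 0.60 over the 8 S phase genes at 10 CPM or more in 3 libraries, a filter that leaves 3 of 17 mitosis genes. Ratios and counts without the library that holds most counts of a gene were also chosen after seeing the data. Limits are the 3 libraries per group, picks of few cells, and 1 library that carries most mitosis counts.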

Other observations

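Olig3 library 3 had 7 counts in all over the 15 mitosis genes other than Ccna2 and Bub1b, against 94 to 173 in GFP library 1, Olig3 library 1 and the Olig2 libraries, 223 in Olig3 library 2, 938 in GFP library 2 and 9095 in GFP library 3. It also had counts for only 8 of 15 S phase genes, where the other libraries had 13 to 15, yet its Pcna and Ccne2 counts of 767 and 243 lay within the range of the others.

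Highest levels were not spread evenly over libraries for genes at large. Of 15609 tested genes, 18.8% had their highest scaled level in Olig3 library 3, 18.4% in Olig3 library 1 and 14.0% in GFP library 3, against 5.35% in Olig2 library 3.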
